A study of Mus musculus with 6 samples.

Results

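The nuclear genes of the mitochondrial respiratory chain and ATP synthase were followed in 6 mouse forebrain libraries, 3 from a normal chow diet (NCD) and 3 from a high-fat diet (HFD). Members were taken by gene symbol: Nduf followed by a, b, c, s or v and a digit, Sdha to Sdhd, symbols that start with Uqcr, Cox followed by 4 to 8, and symbols that start with Atp5. This gave 84 of the 23282 rows of the count tables, with 37 in complex I, 4 in complex II, 8 in complex III, 18 in complex IV and 17 in complex V. All mice were wild-type C57BL/6J males of 8 to 10 weeks, and the HFD, with 60% of its energy from fat, was given for 10 days. RNA came from the whole forebrain without olfactory bulbs and cerebellum, so neurons, glia and vessels are mixed in each library, and fewer cells of a type cannot be told apart from less RNA per cell. The labels do not say that the libraries of a diet came from separate mice, and the p-values measure the spread between these samples, which may be technical in part.

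The respiratory chain passes electrons from NADH (complex I) and succinate (complex II) through coenzyme Q to complex III, and then through cytochrome c to oxygen at complex IV. Complexes I, III and IV pump protons across the inner membrane, and complex V, the ATP synthase, lets them return and makes ATP. Neurons draw most of their ATP from this chain, and its subunits come from both nuclear and mitochondrial DNA. The 13 subunits encoded by mitochondrial DNA were not analysed here, so the values below are for nuclear genes alone.

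The libraries were made with QuantSeq, which primes on the poly(A) tail and gives about 1 read per transcript near its 3' end. A level is therefore given as CPM, the read count scaled to a common library size with the TMM method of edgeR, and was not divided by transcript length. Total counts ran from 6842785 to 9689372 per library, and the 84 genes together took between 1.66% and 1.78% of the counts in 5 libraries and 2.01% in HFD replicate 3. A count of 3, taken as the floor for counting error only, corresponds to between 0.316 and 0.432 CPM. Pairs of replicates were further apart than counting alone gives (chi-square over its degrees of freedom, 3.47 to 16.1). The value was 3.47 for NCD replicates 1 and 2 and 3.82 for HFD replicates 1 and 2. It was 9.26 and 12.7 for the pairs with NCD replicate 3, and 14.1 and 16.1 for those with HFD replicate 3. All 6 neuron markers had counts, and their summed level was 5101 to 5482 CPM in the NCD libraries and 4993 to 5172 CPM in the HFD libraries. The testis markers Prm1, Prm2 and Tnp1 had no count in any library.

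HFD replicate 3 stood apart from the other 5 libraries. All 4 pituitary markers had counts, and their summed level was 6.005 to 13.2 CPM in the NCD libraries, 4.18 and 5.14 CPM in HFD replicates 1 and 2, and 1263 CPM in HFD replicate 3. Growth hormone (Gh) gave 1092 of these CPM and prolactin (Prl) 131 CPM. The ribosomal RNA precursor Rn45s took 8.75% of the counts of the same library, against 5.55% to 7.35% in the others. Summed astrocyte markers (5 of 5 with counts) were lowest in this library, at 2753 CPM against 3058 to 3373 CPM in the others. Slc1a2 gave most of this sum and alone was lowest there, at 2448 CPM against 2705 to 3066 CPM. Gfap, Aqp4, Aldh1l1 and Gja1 were each lower in another library. Summed neuron markers were also lowest in HFD replicate 3, at 4993 CPM against 5089 to 5482 CPM in the others. Of these, Syt1, Eno2 and Gad1 were lowest there, Snap25 was highest, and Rbfox3 and Slc17a7 lay within the range of the others. The 5 erythroid markers, which all had counts, summed to 421 to 519 CPM in the NCD libraries. In HFD replicates 1 to 3 their sums were 699, 544 and 825 CPM, above the NCD range in each and highest in HFD replicate 3. By gene, only Hba-a1 and Hbb-bt were above the NCD range in every HFD library. In HFD replicate 2 Hba-a2, Hbb-bs and Alas2 were within it, as was Alas2 in HFD replicate 3. Hba-a2 and Alas2 were highest in HFD replicate 1. Values without HFD replicate 3 are given beside the group values and the genes that moved with it.

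Summed over the 37 genes of complex I, the NADH dehydrogenase, the level was 5723, 5911 and 5724 CPM in NCD replicates 1, 2 and 3 and 5626, 5751 and 7405 CPM in HFD replicates 1, 2 and 3. HFD replicate 3 was above every other library, while HFD replicate 1 was below and HFD replicate 2 within the NCD range. The means were 5786 ± 108 CPM for NCD and 6260 ± 993 CPM for HFD (SD, n = 3 each).

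For complex II, the succinate dehydrogenase, the sums were 774, 821 and 788 CPM in the NCD libraries and 764, 787 and 894 CPM in the HFD libraries. Complex III, the cytochrome bc1 complex, summed to 1684, 1722 and 1784 CPM on the NCD and 1620, 1678 and 2112 CPM on the HFD. In complex II HFD replicate 1 was the lowest library, and in complex III both HFD replicates 1 and 2 lay below the 3 NCD libraries, with HFD replicate 3 the highest in each.

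Complex IV, the cytochrome c oxidase, summed to 4102, 4069 and 4222 CPM in the NCD libraries and 4058, 4046 and 5211 CPM in the HFD libraries. Complex V gave 4595, 4689 and 4404 CPM on the NCD and 4426, 4569 and 5356 CPM on the HFD. The same arrangement held, with HFD replicate 3 alone above the NCD range and HFD replicates 1 and 2 below it in complex IV and inside it in complex V. The ratio of the HFD mean to the NCD mean was 1.08 for complex I, 1.03 for II, 1.04 for III, 1.07 for IV and 1.05 for V. Without HFD replicate 3 the ratios were 0.983, 0.977, 0.953, 0.981 and 0.986, under 1 in all 5 complexes.

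**Figure D1:**
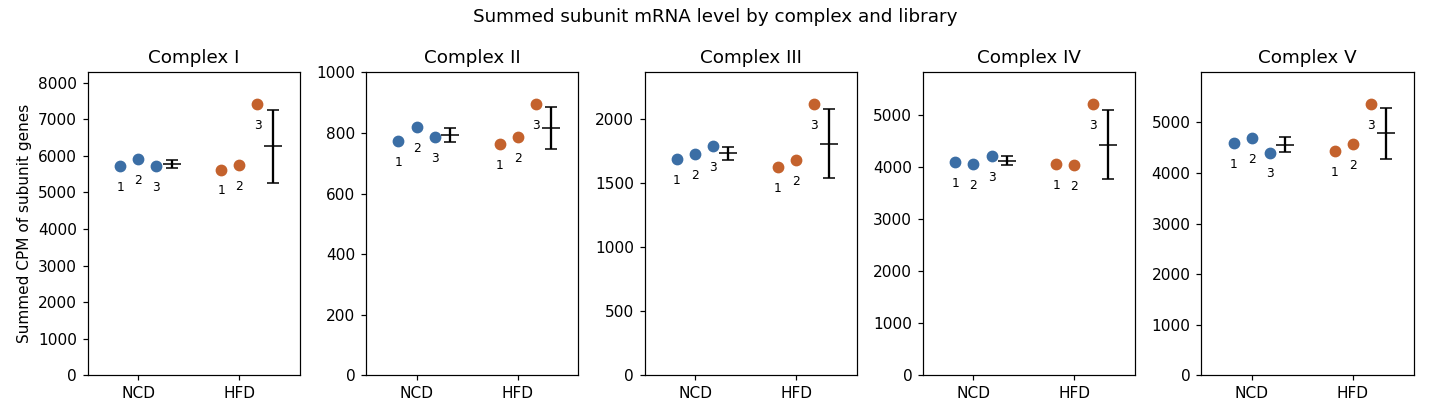
Summed CPM (linear axis from 0) of the subunit genes of each complex in NCD replicates 1 to 3 (blue) and HFD replicates 1 to 3 (orange), with the mean and SD of each diet as bars. HFD replicate 3 is the highest point in every panel, at 7405 CPM for complex I against 5626 to 5911 CPM in the other 5 libraries.

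Gene by gene, HFD was set against NCD in a fit of 13771 genes with enough counts (edgeR's quasi-likelihood test), among them 81 of the 84 subunit genes. The other 3 were Cox8c, with no count in any library, Cox7b2 and Cox8b. At an adjusted p under 0.05 (Benjamini-Hochberg), 0 subunit genes and 0% of all genes passed. At an unadjusted p under 0.05, 2 subunit genes, Ndufs3 and Atp5c1, were higher in the HFD libraries and 0 were lower, 2.47% of the 81 against 3.68% of all genes tested (1.71% higher and 1.98% lower). Over both directions the share of subunit genes was below that of all genes, and in the higher direction, which held both, it was above. Without HFD replicate 1, so that HFD replicate 3 is 1 of 2 HFD libraries, 10 of 83 subunit genes were higher (12% against 2.58% of all genes) and 0 were lower (2.87% of all genes). DESeq2 with all libraries also gave 0 at an adjusted p under 0.05 and 2 at an unadjusted p under 0.05. None passed a fold change of 1.5 together with an unadjusted p under 0.05, which 1.28% of all genes did.

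The libraries of the 2 diets did not overlap in 5 subunit genes, or 6.17%, against 8.81% of all genes. Of these, Ndufs3, Cox4i2, Atp5d and Atp5c1 were above (4.94%, against 4.31% of all genes) and Atp5sl was below (1.23%, against 4.49%). This split of 4 above and 1 below was 3 and 3 with scaling to library size alone, 3 and 3 without the count filter and 2 and 3 with the length-dependent offset described below. The shares of all genes under these settings are not given here, so these splits cannot be set against them. The whole 95% interval of the fold change lay within 1.5-fold in either direction for 76 of the 81 genes, or 93.8%, against 62.5% of all genes. The exceptions were Ndufa4l2, Cox4i2, Cox6b2, Cox7a1 and Atp5s, the 5 tested members with the lowest levels. Subunit genes were read more deeply than most, with a median level of 167 CPM against 21.8 CPM over all genes tested and a median standard error of 0.12 against 0.16 on the log2 scale.

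Small differences pointed one way. The log2 fold change of HFD over NCD was above 0 in 68 of 81 subunit genes, or 84%, against 49.4% of all genes, and its median was 0.10 against -0.0025 over all genes. By complex, it was above 0 in 32 of 37 genes of complex I (median 0.11), 3 of 4 of complex II (0.06), 6 of 8 of complex III (0.04), 13 of 15 of complex IV (0.10) and 14 of 17 of complex V (0.10).

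**Figure D2:**
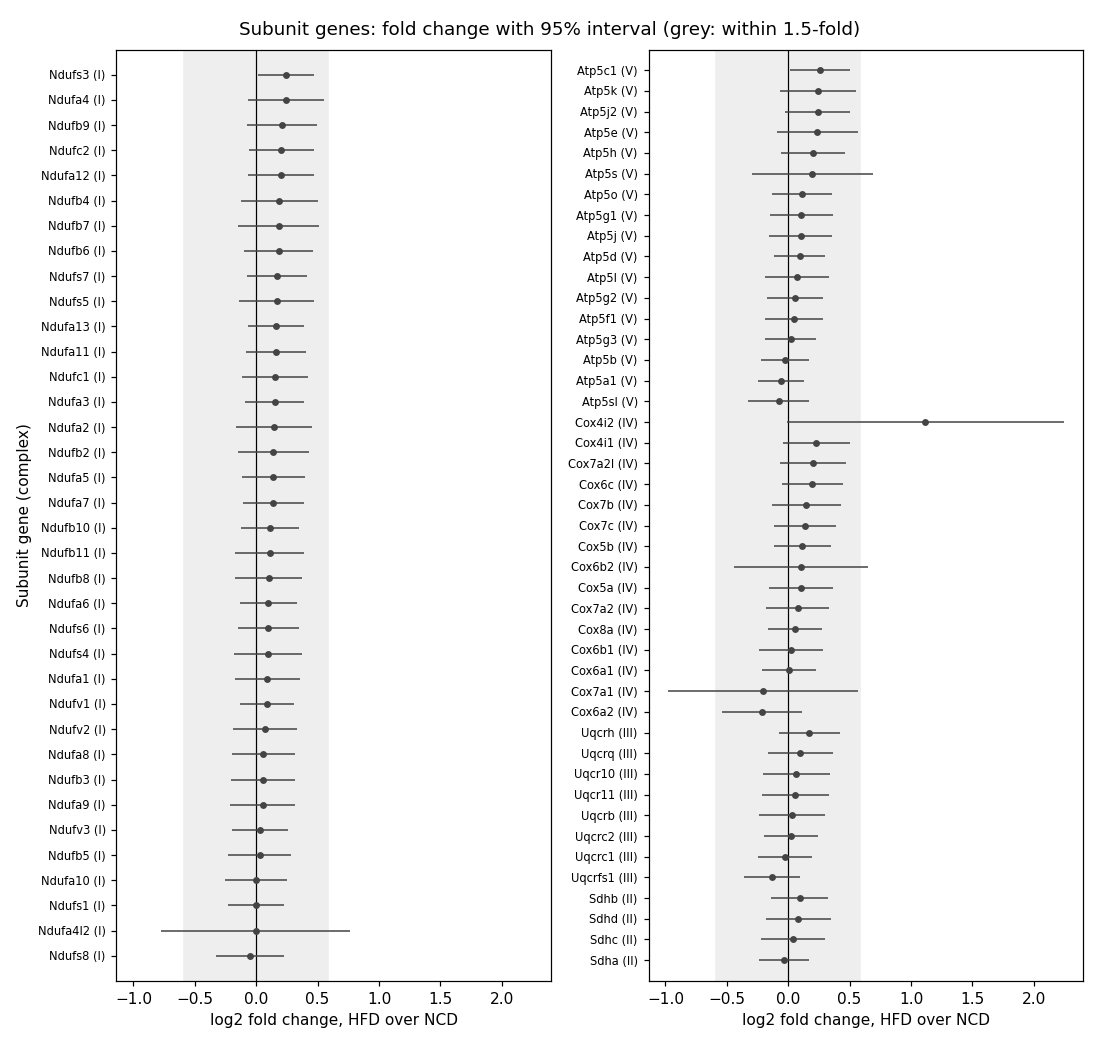
Log2 fold change of HFD over NCD with its 95% interval for 80 of the 81 subunit genes tested, complex I on the left and complexes II to V on the right, with the band of less than 1.5-fold in grey. Only the intervals of Ndufs3 and Atp5c1 leave out 0, and those of Ndufa4l2, Cox4i2, Cox6b2, Cox7a1 and Atp5s reach beyond the band.

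The shift was carried by 1 library. A library's deviation was taken for each gene as its log2 CPM minus the median of the 6 libraries. The median deviation of the subunit genes was 0.31 in HFD replicate 3 and between -0.04 and 0.02 in the other 5 libraries, and HFD replicate 3 was the highest library for 65 of the 81 genes, or 80.2%, as it was for 26.2% of all genes. By complex the median deviation of this library was 0.34 for I, 0.30 for II, 0.33 for III, 0.31 for IV and 0.19 for V. The genes that deviated most there were Ndufb7 (0.61), Ndufb9 (0.57), Atp5e (0.56), Ndufa2 (0.56) and Cox4i1 (0.54), of which Ndufb7, Atp5e and Ndufa2 were chosen after their values were seen. Few genes stayed at or below the median of the libraries, among them Ndufa4l2 (-0.26), Atp5sl (-0.12), Sdha (-0.07) and Cox6b2 (-0.07). NCD replicate 3 was the lowest library for 28 of the 81 genes, against 21.7% of all genes.

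**Figure D3:**
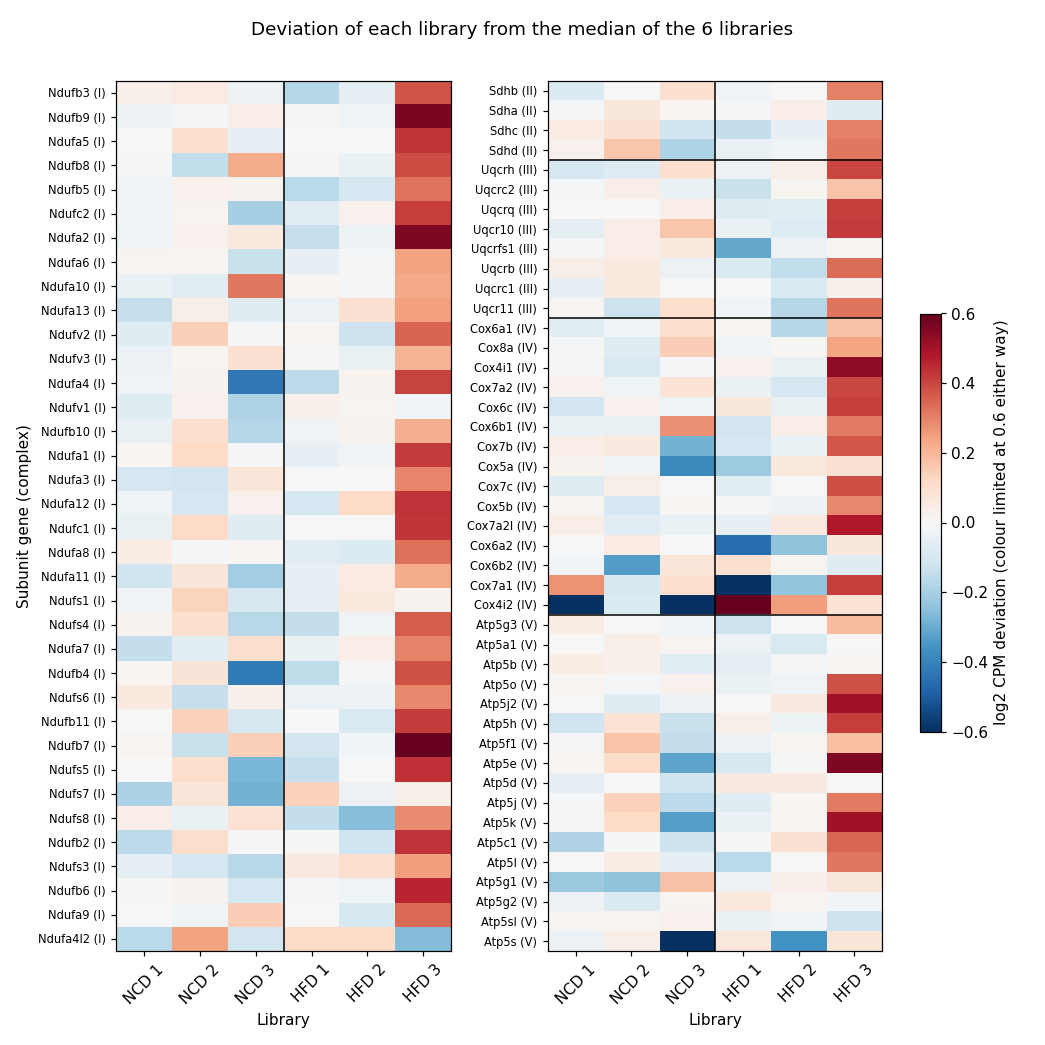
Deviation of each library (columns) from the 6-library median of log2 CPM for 80 of the 81 subunit genes tested (rows, by complex and from high to low level), red above and blue below the median, with colours limited at 0.6 either way. The column of HFD replicate 3 is red for most genes, with a median of 0.31 over all 81, while the other columns have medians between -0.04 and 0.02.

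Without HFD replicate 3, the fit tested 82 subunit genes, their median log2 fold change was -0.02, and 32 of them, or 39%, were above 0, against 48.8% of all genes. At an unadjusted p under 0.05, 0 subunit genes were then higher (1.29% of all genes) and 2 were lower, Cox6a2 and Ndufs8, which is 2.44% against 1.89% of all genes. Both remaining HFD libraries lay below the NCD libraries in 17 subunit genes, or 20.7%, against 9.44% of all genes, and above them in 4, or 4.88%, against 8.95%. By complex the median without it was -0.02 for I, -0.03 for II, -0.09 for III, -0.02 for IV and 0.0026 for V. The direction of the subunit genes as a group therefore turned on this library.

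In complex I the 7 nuclear core subunits carry the flavin and the iron-sulfur clusters of the peripheral arm. The other 30 members were taken as accessory subunits, with Ndufa4, since found with complex IV, and its relative Ndufa4l2 among them. The core genes had a median deviation of 0.15 in HFD replicate 3 and the accessory genes one of 0.38, with ranges of -0.02 to 0.35 and -0.26 to 0.61 that overlap. The low end of -0.26 was that of Ndufa4l2. Core genes had a median log2 fold change of 0.07 and accessory genes one of 0.14, which became -0.0055 and -0.02 without HFD replicate 3.

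Ndufs3, a core subunit near the coenzyme Q site, lies on chromosome 2 from 90894634 to 90904827 on the minus strand (GRCm38). Its level was 72.1, 69.4 and 66.5 CPM in NCD replicates 1 to 3 and 77.4, 80.0 and 89.1 CPM in HFD replicates 1 to 3. All HFD libraries were above all NCD libraries, and HFD replicate 3 was the highest. The log2 fold change of 0.25 ± 0.11 (SE) had an unadjusted p of 0.0360 and an adjusted p of 0.979 in edgeR's quasi-likelihood test. With HFD replicate 3 left out it fell to 0.19 ± 0.10 at an unadjusted p of 0.0784 in the same test, and leaving out a library other than HFD replicate 1 always took the p past 0.05. The last bases of Ndufs3 are shared with Gm12251, and its exons overlap Kbtbd4 on the other strand, so reads could be split or joined.

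Ndufs8, which holds iron-sulfur clusters next to the Q site, had 83.7, 79.2 and 86.5 CPM in the NCD libraries and 73.7, 68.2 and 99.1 CPM in the HFD libraries. HFD replicates 1 and 2 were below and HFD replicate 3 above every NCD library. With all libraries the log2 fold change was -0.05 ± 0.13 and -0.23 ± 0.10 without HFD replicate 3, where edgeR's quasi-likelihood test gave an unadjusted p of 0.0356.

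Ndufs1, the largest iron-sulfur subunit, had 120, 133 and 114 CPM in the NCD libraries and 117, 127 and 123 CPM in the HFD libraries. Ndufv1, which binds NADH and the flavin, had 162, 174 and 150 CPM on the NCD and 175, 173 and 169 CPM on the HFD. For both genes the diets overlapped and HFD replicate 3 was close to its diet mates. Their log2 fold changes were -0.00024 ± 0.11 and 0.09 ± 0.10.

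Its partner Ndufv2 had 188, 218 and 196 CPM in the NCD libraries and 199, 181 and 251 CPM in the HFD libraries. Ndufs7, which holds the last cluster of the chain of iron-sulfur centres, had 78.9, 94.6 and 73.8 CPM on the NCD and 98.9, 87.8 and 92.0 CPM on the HFD. The diets overlapped in each, with HFD replicate 3 the highest library for Ndufv2 and HFD replicate 1 for Ndufs7.

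Of the accessory subunits, Ndufb3 and Ndufb9 of the membrane arm had the highest mean levels. Ndufb3 had 399, 403 and 382 CPM in the NCD libraries and 347, 376 and 507 CPM in the HFD libraries. Ndufb9 had 294, 299 and 309 CPM on the NCD and 302, 295 and 445 CPM on the HFD. The other 5 libraries of Ndufb9 lay within 294 to 309 CPM and HFD replicate 3 stood alone above them. The log2 fold changes were 0.05 ± 0.12 for Ndufb3 and 0.21 ± 0.14 for Ndufb9, and without HFD replicate 3 they were -0.13 and -0.01.

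Complex II oxidises succinate in the tricarboxylic acid cycle and all of its subunits are nuclear. Sdha, the flavoprotein, had 267, 283 and 272 CPM in the NCD libraries and 268, 277 and 256 CPM in the HFD libraries. Sdhb, the iron-sulfur protein, had 273, 290 and 310 CPM on the NCD and 285, 289 and 357 CPM on the HFD. HFD replicate 3 was the lowest library for Sdha and the highest for Sdhb.

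Sdhc, a membrane anchor, had 147, 151 and 131 CPM in the NCD libraries and 129, 137 and 175 CPM in the HFD libraries. Sdhd, the other anchor, had 86.5, 95.7 and 74.9 CPM on the NCD and 82.5, 83.7 and 106 CPM on the HFD. As for Sdhb, both anchors were highest in HFD replicate 3 and the diets overlapped. The log2 fold changes ran from -0.04 ± 0.10 for Sdha to 0.09 ± 0.11 for Sdhb. Without HFD replicate 3 they were -0.0075 for Sdha, -0.02 for Sdhb, -0.11 for Sdhc and -0.04 for Sdhd.

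In complex III, Uqcrfs1, the Rieske iron-sulfur protein, had 186, 192 and 195 CPM in the NCD libraries and 151, 182 and 189 CPM in the HFD libraries. Here HFD replicates 1 and 2 were the lowest libraries and HFD replicate 3 lay within the NCD range. Its log2 fold change of -0.13 ± 0.11 was the lowest of the complex, with an unadjusted p of 0.242 in edgeR's quasi-likelihood test. The core proteins Uqcrc1 and Uqcrc2 had log2 fold changes of -0.03 ± 0.10 and 0.03 ± 0.10, with mean levels of 122 and 315 CPM.

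Uqcrh, the hinge protein that binds cytochrome c1, had the highest mean level of the complex. It had 373, 379 and 428 CPM in the NCD libraries and 390, 410 and 528 CPM in the HFD libraries, with a log2 fold change of 0.17 ± 0.12 that was 0.03 ± 0.09 without HFD replicate 3. HFD replicates 1 and 2 were within the NCD range and HFD replicate 3 was above it.

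Complex IV holds pairs of isoforms, of which one is common and the other is known from heart and skeletal muscle, lung or testis. Cox4i1, the common form of the largest nuclear subunit, had 461, 430.5 and 457 CPM in the NCD libraries and 467, 447 and 666 CPM in the HFD libraries. The other 5 libraries were within 430.5 to 467 CPM and HFD replicate 3 was apart from them. A log2 fold change of 0.23 ± 0.13 with all libraries became 0.02 without HFD replicate 3.

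Cox4i2, its lung and hypoxia-related isoform on chromosome 2 from 152754173 to 152765037, was close to the floor. It had 5, 10 and 4 counts in the NCD libraries and 14, 13 and 9 counts in the HFD libraries, or 0.617, 1.08 and 0.421 CPM against 2.02, 1.42 and 1.24 CPM. All HFD libraries were above all NCD libraries, and here HFD replicate 3 was the lowest of its diet. This log2 fold change of 1.115 ± 0.53 had a 95% interval from -0.01 to 2.24 and an unadjusted p of 0.0523 in edgeR's quasi-likelihood test, and without HFD replicate 3 it was 1.25 with a p of 0.0626. Quantile normalization with limma gave 0.59 with an unadjusted p of 0.0049. Pericytes are a known site of this isoform in the brain. All 4 pericyte markers had counts, and their summed level was 59.7 to 64.8 CPM in the NCD libraries and 68.0 to 75.9 CPM in the HFD libraries. Of the 4, only Rgs5 was above the NCD range in every HFD library, at 23.9 to 29.15 CPM against 19.6 to 21.9 CPM. In HFD replicate 3 Pdgfrb and Vtn were below every NCD library, at 6.60 and 26.4 CPM, and the diets overlapped for Kcnj8. The part of pericytes in the Cox4i2 values was not tested.

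Cox6a2, the muscle form of subunit 6a, also known in some interneurons, lies on chromosome 7 from 128205435 to 128206387. It had 22.7, 23.6 and 22.9 CPM in the NCD libraries and 16.5, 19.2 and 23.9 CPM in the HFD libraries. HFD replicates 1 and 2 were below the narrow NCD range and HFD replicate 3 just above it. In edgeR's quasi-likelihood test its log2 fold change was -0.21 ± 0.15 (unadjusted p 0.187) with all libraries and -0.36 ± 0.15 (unadjusted p 0.0264) without HFD replicate 3. All 5 striated muscle markers had counts, though Ckm, Mb and Tnnt3 were under 1 CPM and at 0 in some libraries, and their summed level was 16.4 to 17.7 CPM in the NCD libraries and 11.95 to 16.4 CPM in the HFD libraries. Their part in these values was not tested. The exons of Cox6a2 overlap Itgad on the other strand.

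**Figure D4:**
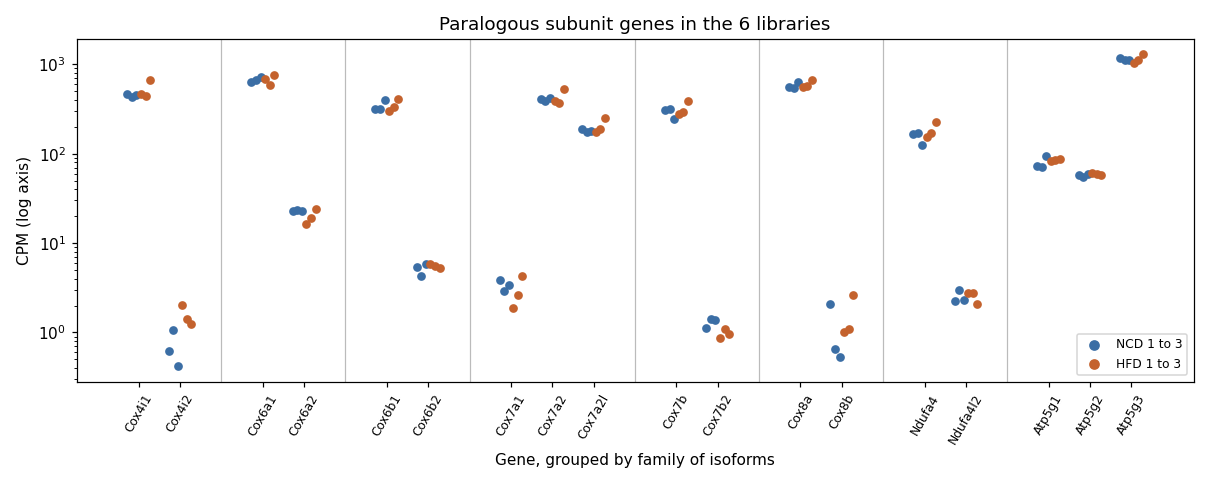
CPM (log axis) of the paralogous subunit genes in NCD replicates 1 to 3 (blue) and HFD replicates 1 to 3 (orange), grouped by family. The common isoform of each Cox family with a single one lies well above its rare relatives, as with Cox4i1 at 430.5 to 666 CPM and Cox4i2 at 0.421 to 2.02 CPM, and Cox8c had no count and is not drawn.

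The common isoforms of complex IV gave nearly all counts of their families, apart from the 7a family. Cox4i1 gave 99.6% to 99.9% of the counts of its pair, Cox6a1 96.6% to 97.6%, Cox6b1 98.1% to 98.7%, Cox7b 99.5% to 99.8% and Cox8a 99.6% to 99.9%. Their rare relatives varied more in proportion, from 0.0922% to 0.43% for Cox4i2 and from 0.0836% to 0.389% for Cox8b. Cox6a1 and Cox8a, the most abundant members of complex IV, had mean levels of 675 and 589 CPM and log2 fold changes of 0.01 ± 0.10 and 0.05 ± 0.10 (-0.08 and -0.03 without HFD replicate 3). In the 7a family Cox7a2 gave 66.0% to 70.0% and Cox7a2l 29.4% to 33.6%. The heart and muscle form Cox7a1 had 0.331% to 0.641%, with 31, 27 and 32 counts on the NCD and 13, 24 and 31 counts on the HFD.

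The testis-known forms were rare or at 0. Cox6b2 had 4.31 to 5.79 CPM in the NCD libraries and 5.22 to 5.90 CPM in the HFD libraries. Cox7b2 had 9, 13 and 13 counts on the NCD and 6, 10 and 7 counts on the HFD, and Cox8b, a muscle form, had 17, 6 and 5 counts on the NCD and 7, 10 and 19 counts on the HFD. Both were under the count filter, and although the HFD libraries lay below the NCD libraries in CPM for Cox7b2, the fit without the filter gave a log2 fold change of -0.40 ± 0.64. With no count, Cox8c could have had up to 0.432 CPM in the shallowest library.

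Ndufa4, first assigned to complex I and since found with complex IV, had 167, 172 and 126 CPM in the NCD libraries and 152, 172 and 225 CPM in the HFD libraries. Its hypoxia-related relative Ndufa4l2 had 2.22, 3.02 and 2.32 CPM on the NCD and 2.74, 2.73 and 2.06 CPM on the HFD. NCD replicate 3 was the lowest and HFD replicate 3 the highest library for Ndufa4, whereas HFD replicate 3 was the lowest for Ndufa4l2, whose exons overlap Shmt2 on the other strand. The log2 fold changes were 0.24 ± 0.15 and -0.0052 ± 0.36, and without HFD replicate 3 they were 0.07 ± 0.12 and 0.11 ± 0.41.

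In complex V, the F1 head that makes ATP is built from the alpha, beta, gamma, delta and epsilon subunits. Atp5c1, the rotating gamma subunit, lies on chromosome 2 from 10056016 to 10080510 on the minus strand and had 107, 120 and 111 CPM in the NCD libraries and 122, 129 and 154 CPM in the HFD libraries. All HFD libraries were above all NCD libraries, by a narrow gap between NCD replicate 2 and HFD replicate 1. The log2 fold change of 0.26 ± 0.11 had an unadjusted p of 0.0393 and an adjusted p of 0.979 in edgeR's quasi-likelihood test. Without HFD replicate 3 the value was 0.15 ± 0.09 (unadjusted p 0.121 in the same test), and the p of Atp5c1 also passed 0.05 without NCD replicate 1 (0.134), NCD replicate 3 (0.0755) or HFD replicate 2 (0.0520).

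Atp5d, the delta subunit, had 183, 190 and 175 CPM in the NCD libraries and 197, 197 and 190 CPM in the HFD libraries. The HFD libraries were above the NCD libraries, with HFD replicate 3 the lowest of its diet and within 1 CPM of NCD replicate 2. Its log2 fold change of 0.09 ± 0.10 had an unadjusted p of 0.364 in edgeR's quasi-likelihood test.

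The alpha and beta subunits, Atp5a1 and Atp5b, carry the catalytic sites. Atp5a1 had 670, 688 and 679 CPM in the NCD libraries and 655, 630 and 671 CPM in the HFD libraries. Atp5b had 593, 588 and 551 CPM on the NCD and 552, 571 and 580 CPM on the HFD. These libraries overlapped, HFD replicate 3 included, and the 95% intervals of the log2 fold changes were -0.25 to 0.13 for Atp5a1 and -0.22 to 0.17 for Atp5b.

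The c-ring that turns with the proton flow is made by 3 genes that encode the same mature protein. Atp5g3 gave at least 87.8% of their counts, Atp5g1 5.56% to 7.48% and Atp5g2 4.05% to 5.21%. Atp5g3, the subunit gene with the highest level of all, had 1166, 1133 and 1114 CPM in the NCD libraries and 1037, 1131 and 1291 CPM in the HFD libraries. HFD replicate 1 was its lowest and HFD replicate 3 its highest library, and the log2 fold change was 0.02 ± 0.10, or -0.07 without HFD replicate 3.

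Atp5sl, which the symbol rule takes in although its product is now known as an assembly factor of complex I, lies on chromosome 7 from 25619414 to 25625551. It had 40.7, 40.8 and 41.1 CPM in the NCD libraries and 39.2, 39.9 and 37.0 CPM in the HFD libraries. All HFD libraries were below the tight NCD values, HFD replicate 3 the farthest, with a log2 fold change of -0.08 ± 0.12 and an unadjusted p of 0.511 in edgeR's quasi-likelihood test.

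The deviation of HFD replicate 3 moved with transcript length, taken as the median length of a gene's annotated transcripts. In this library the subunit genes under 600 bases had a median deviation of 0.38 (27 genes), those of 600 to 1000 bases 0.33 (27 genes), those of 1000 to 2000 bases 0.25 (21 genes) and those of 2000 to 4000 bases 0.04 (6 genes). All other genes of the same classes had medians of 0.28, 0.18, 0.05 and -0.02, and those of 4000 bases and over, where no subunit gene falls, had -0.10. Subunit genes are short, so their classes are the ones that deviated most in this library, and within each class their median was above that of the other genes.

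Across the 81 genes the deviation of HFD replicate 3 had a Pearson r of -0.45 and a Spearman rho of -0.39 with log2 length, and across the 13579 other genes with a length r was -0.27 and rho -0.30. The genes of such a correlation share 1 library and are not independent. In the other 5 libraries r lay between -0.08 and 0.17 for the subunit genes. When a smooth curve of deviation against length was taken out of each library, an alternative chosen after seeing the data, the subunit genes had a median deviation of 0.10 in HFD replicate 3 and a median log2 fold change of 0.03 (-0.05 in complex III, where the ratio of the summed levels was 0.981), and 50 of 81 genes, or 61.7%, were above 0, against 50.1% of all genes. At an unadjusted p under 0.05 there was then 1 subunit gene higher (Atp5c1, 1.23% against 1.92% of all genes) and 1 lower (Cox6a2, 1.23% against 2.03%). The part of the pituitary transcripts, of the neuron, astrocyte and erythroid markers and of Rn45s in the values of HFD replicate 3 was not tested.

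**Figure D5:**
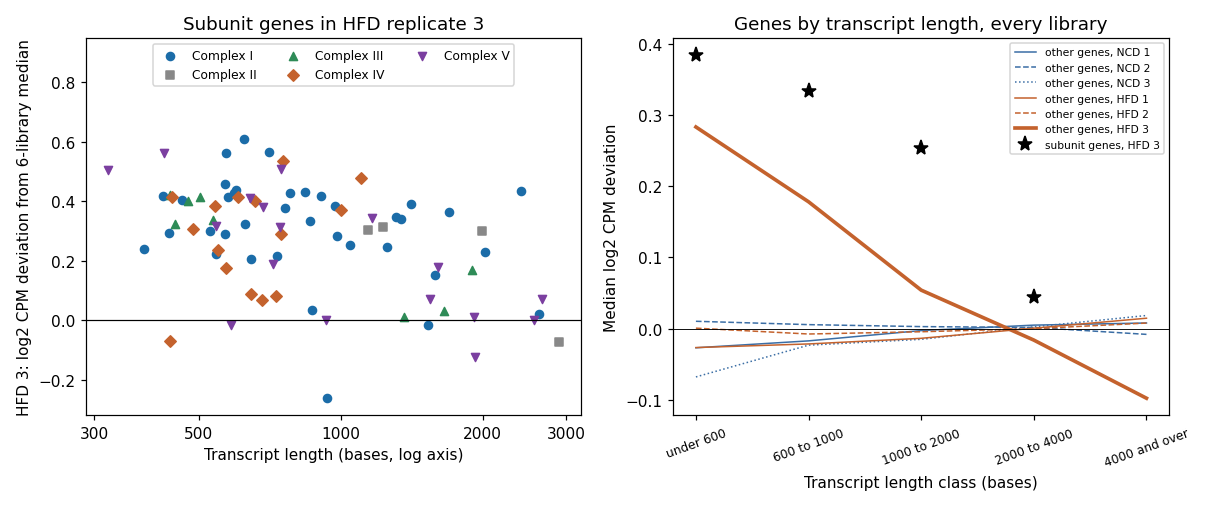
Left, log2 CPM deviation of HFD replicate 3 from the 6-library median against transcript length (log axis) for the 81 subunit genes, by complex. Right, median deviation by length class of all other genes in each library (lines) and of the subunit genes in HFD replicate 3 (stars). The line of HFD replicate 3 falls from 0.28 under 600 bases to -0.10 at 4000 bases and over, the other lines stay near 0, and the stars fall from 0.38 to 0.04.

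Genes that work beside the subunits were described by the same measures. Of 5 nuclear subunits that the symbol rule leaves out, 0 passed an unadjusted p under 0.05, with log2 fold changes from -0.12 ± 0.14 for Cyc1 (cytochrome c1) to 0.17 ± 0.13 for Usmg5 of the ATP synthase. Their median of 0.11, with 4 of 5 above 0, became -0.03 with 0 of 5 above 0 without HFD replicate 3, where Usmg5 was at -0.0021. None of 14 assembly factors of complex I or 3 of ATP synthase passed, and their medians were 0.06 and -0.02. For complexes II and III, 1 of 10 assembly factors was higher (median 0.13), and for complex IV 1 of 25 (median 0.07). The 2 were Uqcc2 and Coa6. Of all genes, 1.71% were higher and 1.98% lower at this threshold. Without HFD replicate 3 the medians were -0.01 for complex I, -0.12 for ATP synthase, 0.05 for complexes II and III and 0.02 for complex IV. Then 0 of these factors passed, beside 1.29% of all genes higher and 1.89% lower. Over all these assembly factors the values ran from -0.32 ± 0.16 for Bcs1l, of complex III, to 0.61 ± 0.59 for Sdhaf3, of complex II. Sdhaf3 was close to the floor, with 0.247 to 1.26 CPM in the NCD libraries and 0.720 to 1.51 CPM in the HFD libraries.

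Coa6, a copper chaperone for complex IV, had 14.3, 15.9 and 15.1 CPM in the NCD libraries and 16.7, 21.1 and 23.6 CPM in the HFD libraries. The HFD libraries were above the NCD libraries, with a log2 fold change of 0.44 ± 0.16, an unadjusted p of 0.0155 and an adjusted p of 0.979 in edgeR's quasi-likelihood test, and 0.33 ± 0.16 (unadjusted p 0.0616) without HFD replicate 3. Leaving out NCD replicate 1 gave 0.41 with a p of 0.0502. Uqcc2, which helps to make cytochrome b, had 75.5, 82.7 and 67.7 CPM on the NCD and 84.4, 78.8 and 125 CPM on the HFD. Here the diets overlapped and HFD replicate 3 stood above the rest, and the log2 fold change of 0.35 ± 0.15 (unadjusted p 0.0341 in edgeR's quasi-likelihood test) was 0.11 ± 0.11 without it. The p of Uqcc2 also passed 0.05 without NCD replicate 1 (0.0726) or NCD replicate 3 (0.128).

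Upstream and around the chain, an unadjusted p under 0.05, which 3.68% of all genes reached, was passed by 0 of 18 genes of electron carriers and coenzyme Q synthesis, 0 of 15 regulators of mitochondrial biogenesis, 0 of 10 membrane carriers and uncoupling proteins and 0 of 17 tricarboxylic acid cycle genes. Their median log2 fold changes were -0.02, -0.08, -0.01 and 0.01 (-0.06, -0.07, -0.05 and -0.0011 without HFD replicate 3), and their median deviations in HFD replicate 3 were 0.05, -0.03, 0.01 and 0.03, against 0.31 for the subunit genes. The extremes were Ucp3, an uncoupling protein, at -0.98 ± 0.53 and Etfdh, which feeds electrons from fatty acid oxidation to coenzyme Q, at 0.32 ± 0.19. Regulators ran from -0.53 for Peo1, the mitochondrial DNA helicase, to 0.30 for Gabpa, a subunit of GABP, and the cycle genes from -0.19 for Ogdh to 0.21 for Idh2. Without HFD replicate 3, 1 regulator (Tfb2m, -0.41) and 1 cycle gene (Idh3g, -0.23), both named after their values were seen, were lower at an unadjusted p under 0.05, as were 1.89% of all genes.

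Other gene sets sat with the subunit genes in HFD replicate 3. Of 80 cytosolic ribosomal protein genes 78 were highest in this library (median deviation 0.45), as were 26.2% of all genes. At an unadjusted p under 0.05, 19 of the 80 were higher on the HFD, beside 1.71% of all genes. Without HFD replicate 3 this became 1, beside 1.29% of all genes. Of 77 mitochondrial ribosomal protein genes 53 were highest there (0.22), and of 38 proteasome genes 29 (0.20). Without HFD replicate 3 the log2 fold change had a median of 0.07 for the cytosolic ribosomal, -0.01 for the mitochondrial ribosomal and -0.02 for the proteasome genes, beside -0.02 for the subunit genes.

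Promoters from RefSeq on GRCm38.p6, 250 bases before to 50 bases after the transcription start, were matched for 69 of the 84 genes. They were searched on both strands for motifs of factors known to act on genes of the chain: NRF1 (its palindromic motif, by name alone), the NRF1 core (GCATGCG, which is part of the full motif), the ETS motif of GABP (CCGGAAG) and YY1 (AAGATGGC). The full NRF1 motif was in 5 promoters, or 7.25%, against 2.16% of the genes tested and 0.971% of all windows, and its core in 11, or 15.9%, against 6.99% and 3.58%. The ETS motif was in 16, or 23.2%, against 18.6% and 8.86%, and the YY1 motif in 11, or 15.9%, against 5.03% and 2.75%. In HFD replicate 3 the median deviation was 0.18 for the 5 genes with the NRF1 motif and 0.32 for those without. With the NRF1 core the medians were 0.30 and 0.34, with ETS 0.32 and 0.33, and with YY1 0.31 and 0.32. The windows below are those of a gene that separated the diets (Ndufs3) and of the most abundant genes of complexes IV and II (Cox6a1 and Sdhb), with matches to these motifs on either strand in capitals.
Ndufs3, chr2:90904672-90904971, minus strand, 2 ETS matches: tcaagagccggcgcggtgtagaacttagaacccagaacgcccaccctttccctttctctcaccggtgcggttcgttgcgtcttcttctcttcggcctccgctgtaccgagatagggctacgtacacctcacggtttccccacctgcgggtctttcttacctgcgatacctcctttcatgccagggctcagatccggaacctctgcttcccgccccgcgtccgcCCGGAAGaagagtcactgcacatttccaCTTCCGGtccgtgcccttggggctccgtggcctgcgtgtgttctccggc
Cox6a1, chr5:115348909-115349208, minus strand, NRF1 and ETS: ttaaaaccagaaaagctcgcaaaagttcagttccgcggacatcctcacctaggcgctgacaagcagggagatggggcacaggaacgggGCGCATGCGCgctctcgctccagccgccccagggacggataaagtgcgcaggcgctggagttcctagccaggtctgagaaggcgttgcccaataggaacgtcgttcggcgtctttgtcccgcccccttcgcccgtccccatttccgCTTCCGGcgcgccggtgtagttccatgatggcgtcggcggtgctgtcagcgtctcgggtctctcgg
Sdhb, chr4:140961021-140961320, plus strand, NRF1 core and ETS: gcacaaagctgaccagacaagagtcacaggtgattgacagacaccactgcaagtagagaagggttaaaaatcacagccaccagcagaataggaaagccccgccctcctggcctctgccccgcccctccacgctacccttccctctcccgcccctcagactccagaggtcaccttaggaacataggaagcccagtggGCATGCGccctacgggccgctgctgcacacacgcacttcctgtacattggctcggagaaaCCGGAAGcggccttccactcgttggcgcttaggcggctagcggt

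The members are spread over 19 chromosomes, with 9 on chromosome 7, and are protein-coding in GENCODE vM21. Because multiple alignments were counted, copies matter. The last 300 bases of 16 members shared at least 75 bases at 98% identity or more with a transcript of another gene, and Atp5l had 8 such copies. Exons of 4 members overlapped another gene on the same strand and those of 21 a gene on the other strand, and whether the counting used strand is not given in the sources used here. The values of these genes are uncertain to that extent.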

How the data were processed

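The authors trimmed single-end reads of 75 bases, aligned them to mm10 with Bowtie2, counted unique and multiple alignments per gene with Bedtools coverage, and deposited read counts per gene for each library without normalization. Which annotation was used, whether strand was used and the tool versions are not given in the sources used here. Counting near-identical copies together can move reads between a gene and its pseudogenes, and 44 rows repeat a symbol, none of them a subunit gene.

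From the counts, edgeR 4.0.16 in R 4.3.3 kept genes with filterByExpr (minimum count 10, minimum total 15), scaled libraries with TMM and compared HFD with NCD with glmQLFit and glmQLFTest, without a covariate, adjusting p-values over all 13771 genes with the Benjamini-Hochberg method. Standard errors are the log2 fold change over the square root of F, and the 95% intervals follow from them. Members under the filter were taken from the same fit without it. Sums, medians, shares and correlations are descriptions without a test, and log2 CPM used a prior count of 2. The members, gene lists and tests were chosen with earlier results of these data known. Genes named are the 2 most abundant of each complex, the core and catalytic subunits, the isoform families, members with an unadjusted p under 0.05 or with diets that do not overlap, and in the other lists those with such a p and the extremes. A single subunit gene that enters the sums and counts is not reported here by name and is left out of the plots that name genes.

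Positions and transcript lengths come from GENCODE vM21 (GRCm38), with a length for 13660 of the 13771 genes, and 3' ends were compared with BLAST 2.17.0. The fit was tested on simulated data. Alternatives were DESeq2 1.42.0, quantile normalization with limma 3.58.1 on log2(CPM + 1), other scalings and filters, robust estimation, a replicate block, each library left out, and a length-dependent offset added after seeing the data. Descriptive values used pandas 2.3.3 and numpy 2.4.6 in Python 3.11.15, and figures matplotlib 3.10.9. No library was dropped or imputed, and depth is given by the total counts, with the floor covering counting error only.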

Additional observations from a re-analysis of the deposited data

How the results depend on the processing

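Under all 17 fits, 0 subunit genes passed an adjusted p of 0.05, while over all genes the count was 0, except 2 with DESeq2, 23 without a filter and 0 to 3 with a library left out. The 2 subunit genes higher at an unadjusted p under 0.05 became 0 with library size alone, 0 with the replicate block, 1 with quantile normalization and limma, 1 with the length-dependent offset and 7 without a filter, and ranged from 0 (without NCD replicate 1 or HFD replicate 3) to 10 (without HFD replicate 1). Over all genes, 902 in place of 507 passed in either direction without a filter, where the share that was higher was not taken. The 0 subunit genes past 1.5-fold became 1 (Cox4i2) with quantile normalization and ranged from 0 to 1 with a library left out. The 5 subunit genes with diets apart ranged from 8 to 21 with a library left out, where fewer libraries have to separate. Of these fits, the share of all genes is given only without HFD replicate 3. The rise in the other fits therefore cannot be read as a result about the subunit genes. Without HFD replicate 3, 20.7% lay below and 4.88% above, against 9.44% and 8.95% of all genes. The sums and the median over all subunit genes moved by less than the spread between replicates. That spread was taken within the diets over all 6 libraries, so HFD replicate 3 widened it (complex I SD 993 CPM for HFD and 108 CPM for NCD). It therefore cannot judge how far leaving out HFD replicate 3 moved the values. Without HFD replicate 3 the median of -0.02 and all 5 ratios changed side. The complex III ratio of 0.981 and median of -0.0548 also did with the length-dependent offset, and the complex II median of -0.0155 without NCD replicate 3. The replicate numbers share no origin in the labels, and the deviations of same-numbered libraries had correlations of -0.03, 0.05 and -0.06. With the replicate block the median log2 fold change was 0.09, 73 intervals lay inside 1.5-fold, and 371 in place of 507 genes passed an unadjusted p under 0.05.

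Some named genes with values near 0 changed sign, and the cause was not tested. Ndufs1 was 0.00129 with DESeq2, 0.00140 with upper-quartile scaling, 0.000542 without a filter, 0.000633 without genes over 2% of counts, 0.00151 with the replicate block and 0.00750 with the length-dependent offset. With library size alone Cox6a1 was -0.0156, Cox6b1 -0.00327 and Atp5g3 -0.00460, and with quantile normalization Ndufa4l2 was 0.00740, Uqcrc2 -0.00486 and Cox6b1 -0.00348. With the length-dependent offset the values were -0.0302 for Ndufb3, -0.0958 for Cox6a1, -0.0528 for Cox8a, -0.0229 for Cox7a2, -0.104 for Cox6b1, -0.0111 for Cox6b2, -0.0632 for Atp5g3 and -0.0332 for Atp5g2. With a library left out, 14 of 37 named genes changed sign without HFD replicate 3, against 2 to 6 for the other libraries. The ranges were -0.126 to 0.162 for Ndufb3, -0.0115 to 0.313 for Ndufb9, -0.0787 to 0.168 for Ndufv2, -0.0503 to 0.0667 for Ndufs1, -0.230 to 0.0562 for Ndufs8, -0.0841 to 0.147 for Ndufa4l2, -0.0208 to 0.150 for Sdhb, -0.106 to 0.124 for Sdhc, -0.0438 to 0.169 for Sdhd, -0.0544 to 0.0982 for Uqcrc2 and -0.0520 to 0.00799 for Uqcrc1. In complexes IV and V they were -0.0820 to 0.0901 for Cox6a1, -0.0320 to 0.119 for Cox8a, -0.0994 to 0.169 for Cox7a2, -0.105 to 0.132 for Cox6b1, -0.0135 to 0.237 for Cox7b, -0.0134 to 0.196 for Cox6b2, -0.563 to 0.0197 for Cox7a1 and -0.0698 to 0.0903 for Atp5g3. The intervals of the rare isoforms Cox4i2, Cox7a1, Cox6b2 and Ndufa4l2 and of Atp5s reached past 1.5-fold. These are the tested members with the lowest levels, and the part of depth in the width of their intervals was not tested. Atp5s had 8.11 CPM in NCD replicate 3 and 12.5 to 16.9 CPM in the other libraries.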
